A study of Mus musculus with 19 samples.

Results

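The genes described here encode 43 subunits of chromatin remodelling and histone modifying complexes: 2 ATPases, 8 core subunits and 10 variable subunits of the BAF and PBAF (SWI/SNF) complexes, 5 of the ISWI complexes, 3 of the INO80 family, the remodeller HELLS, 4 of Polycomb repressive complex 2 (PRC2), 4 coactivator enzymes and 6 of the NuRD complex. They were chosen by gene symbol, from their known complexes and not from a measured value, though earlier results of these data were known at the time. All 43 were among the 24421 genes of the count table, and all 43 were among the 12694 genes that had enough reads to be tested. RNA-seq had been performed on microdissected mouse embryos at E9.5. The cKO embryos were *Mesp1-Cre; Chd7 fl/fl*, and the controls were *Mesp1-Cre*, so both genotypes carried the Cre. 'HEART' samples (outflow tract and heart tube) came from 4 cKO and 4 control embryos and are given as read counts per sample. 'SHF' samples (distal pharyngeal apparatus, which holds the second heart field) came from 6 cKO and 5 control embryos and are given as a single value per genotype. Each sample was 1 embryo, and 8 of the 11 embryos gave both dissections, so the dissections are not independent. *Mesp1-Cre* acts in the cardiopharyngeal mesoderm lineage, and epithelium and neural crest in the same dissection keep *Chd7*. In such bulk samples, fewer cells of a type and less RNA per cell cannot be told apart.

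Chromatin remodellers use ATP to slide, eject or exchange nucleosomes and so set which DNA sequences transcription factors can reach. CHD7, the protein removed in these embryos, is a remodeller of the CHD family, while BAF, ISWI and INO80 complexes are built round ATPases of their own. PRC2 methylates histone H3 at silenced genes, NuRD couples remodelling to histone deacetylation, and coactivators such as p300 acetylate histones at active enhancers. Many subunits are encoded by paralogues that compete for the same place in a complex, so that a tissue's choice of paralogue gives it its own form of the complex; the BAF60C form of BAF, with the product of *Smarcd3*, is known from the developing mouse heart. The question put to the data was whether loss of CHD7 came with another supply of these subunits.

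*Chd7* itself was read at 35.8, 43.5, 42.7 and 20.4 CPM in cKO samples 1 to 4, against 230.5, 224, 231 and 242 CPM in control samples 1 to 4. Its log2 fold change was -2.71 ± 0.18 (SE), and cKO and control samples did not overlap. The 'HEART' libraries held between 8640839 and 15030099 counted reads, and levels below are in CPM, read counts scaled by TMM to a common library size. Sample cKO 4 stood apart most. Over all tested genes its median absolute deviation from the other cKO samples was 0.174 on the log2 scale, against 0.102 to 0.146 in the other cKO samples and 0.106 to 0.118 in the controls. Cardiomyocyte markers were abundant in every 'HEART' sample, with a sum over 8 genes of 23332 to 26606 CPM in cKO and 23592 to 28436 CPM in control samples. Erythroid markers summed to 1201 to 5625 CPM in cKO and 4320 to 12589 CPM in control samples, and 6 pharyngeal epithelium markers to 501 to 563 CPM in cKO and 246 to 498 CPM in control samples. The epithelial sum was almost wholly *Krt8*, *Krt18* and *Krt19*, while *Epcam*, *Foxa2* and *Cldn6* reached no more than 7.37 CPM in any sample. It therefore does not show how much pharyngeal epithelium a sample held. *Xist*, made by the inactive X chromosome, ran from 34.6 to 86.3 CPM over the cKO samples, and among controls it stood at 61.4 CPM in control 1 and no higher than 1.28 CPM elsewhere. At the threshold given below, 6.44% of all genes tested were called. Of the marker genes tested, *Krt19* (1 of 5 pharyngeal epithelium genes) was called higher in cKO. *Alx1* and *Twist1* (2 of 3 neural crest genes) and *Actn2* (1 of 8 cardiomyocyte genes) were called lower. Among the rest, 0 of 7 endothelial, 0 of 6 erythroid, 0 of 4 epicardial and 0 of 3 neuronal genes were called. A list without calls need not be level between the genotypes. The median log2 fold changes were 0.28 (endothelial), -0.86 (erythroid), -0.03 (epicardial) and -0.69 (neuronal). *Alx1* was scarce, with means of 0.98 CPM in cKO and 3.04 CPM in control samples. The neural crest genes *Sox10*, *Foxd3* and *Tfap2b* had too few reads to be tested. *Sox10*, which defines migrating neural crest, was at 0.157 to 1.29 CPM in cKO and 0.259 to 2.13 CPM in control samples. The calls of *Alx1* and *Twist1* therefore do not show how much neural crest a sample held. What the marker genes of all these cell types contribute to the values below was not tested.

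No subunit gene passed the threshold in 'HEART'. With edgeR's quasi-likelihood test and an adjusted p threshold of 0.1, 6.44% of all genes tested were called (446 higher and 371 lower in cKO), and 0 of the 43 subunits were; the smallest adjusted p was 0.141, for *Hells*. At an unadjusted p of 0.05, 3 of 43 subunits (6.98%) passed, where 16.6% of all genes did. DESeq2 and limma-voom also called 0 of the 43, with 4 and 3 at an unadjusted p of 0.05. In 2 of 43 subunits (4.65%), *Hells* and *Mta3*, the cKO and control samples did not overlap, which 10.2% of all genes showed. The log2 fold changes of the 43 ran from -0.15 (*Dpf1*) to 0.28 (*Hells*) with a median of 0.06, against a median of -0.01 over all genes; 28 were above 0 and 15 below.

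The intervals of most subunits stayed close to 0. All genes were not matched to the subunits in read level, so the shares below do not compare genes of like level. The 95% interval of the fold change lay within 0.32 of 0 on the log2 scale for 33 of the 43 (76.7%), compared with 41.2% of all genes, and within 1.5-fold for 42 of the 43 (97.7%), compared with 73.3% of all genes. The exception was *Dpf1*, which encodes a BAF45 subunit of neurons and was the scarcest of the 43 at 2.55 ± 0.21 CPM in cKO and 2.80 ± 1.17 CPM in control samples (SD, n = 4 each). The intervals that reached past 0.32 either way belonged to *Smarcc2*, *Dpf1*, *Dpf3*, *Baz1a*, *Hells*, *Ezh1*, *Ep300*, *Crebbp*, *Kmt2a* and *Kmt2d*. All 4 coactivator enzymes were among these. An interval can reach past 0.32 through its width or through the fold change itself. *Baz1a* was listed with a log2 fold change of 0.18 ± 0.08 (SE), and *Arid1b* was not, at -0.04 ± 0.12 (SE).

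**Figure D1:**
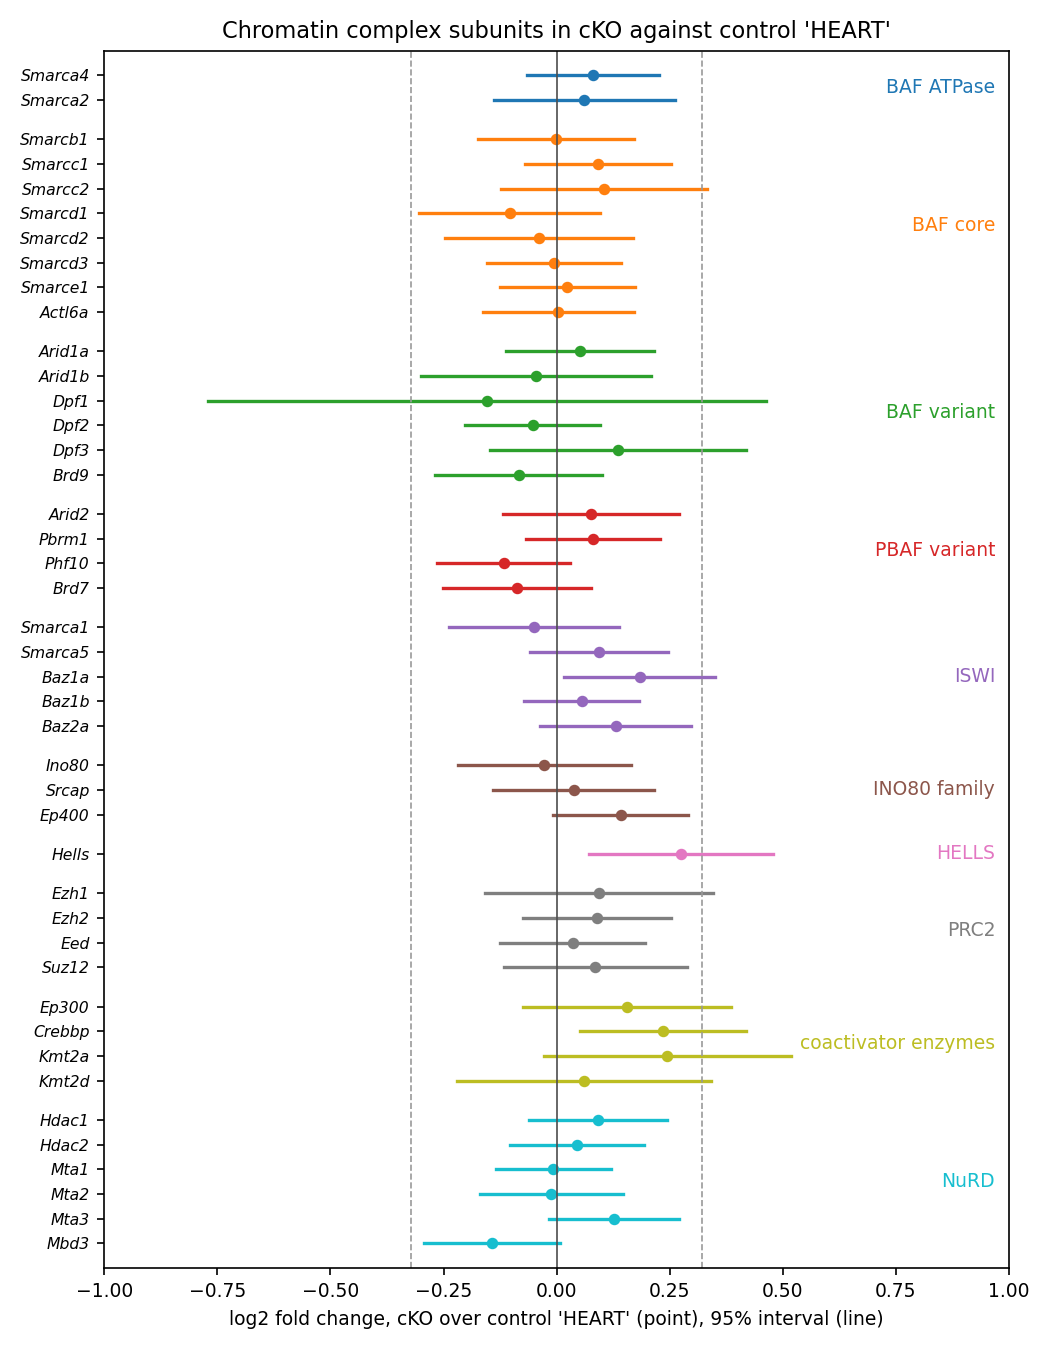
Log2 fold change of each of the 43 subunit genes in cKO over control 'HEART' (points; n = 4 each), with its 95% interval from edgeR (lines), by complex from top to bottom. The dashed lines stand at 0.32 either way, and 33 of the 43 intervals lie between them; the interval of *Dpf1* is the only one past 1.5-fold.

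The ATPases of BAF did not change past the threshold. *Smarca4*, which encodes BRG1, the ATPase that hearts need early in development, had 541, 574, 525 and 491 CPM in cKO samples 1 to 4, against 506, 522, 524 and 465 CPM in control samples 1 to 4. The samples overlapped, with cKO 2 highest and control 4 lowest, and the log2 fold change was 0.08 ± 0.07 (SE) with an interval of -0.07 to 0.23. *Smarca2*, which encodes the alternative ATPase BRM, had 30.4, 36.1, 36.9 and 30.2 CPM in cKO samples 1 to 4, against 31.6, 31.1, 34.7 and 30.3 CPM in control samples 1 to 4, and its log2 fold change was 0.06 ± 0.09 (SE). Per kb of exon, which allows levels of different genes to be compared, *Smarca4* led *Smarca2* by 18.3-fold in cKO and 18.1-fold in control samples. The BRG1 gene thus gave most of the BAF ATPase transcripts in both genotypes.

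Of the 8 core BAF subunits 0 were called (adjusted p 0.603 to 0.996), with 4 above and 4 below 0. *Smarcd3* had the highest level per length of all 43 genes, at 101 ± 2.86 CPM per kb in cKO and 102 ± 7.93 CPM per kb in control samples (SD, n = 4 each). By sample it had 204, 196, 190.4 and 199 CPM in cKO samples 1 to 4, against 211, 185, 184 and 212 CPM in control samples 1 to 4. The 4 cKO values lay inside the range of the controls, and the log2 fold change was -0.01 ± 0.07 (SE), with an interval of -0.15 to 0.14. Its paralogues were scarcer in both genotypes. *Smarcd1* stood at 0.199 of the *Smarcd3* level in cKO and 0.214 in control samples, and *Smarcd2* at 0.0930 in cKO and 0.0954 in control samples. Of the exon bases of *Smarcd3* (chromosome 5, 24590818 to 24624411, - strand, mm10), 33.0% overlap *Chpf2* on the opposite strand. Whether counting used the strand is unknown, so the gene pair could share reads. Among the scaffold subunits, *Smarcc1* (BAF155) led *Smarcc2* (BAF170) by 2.52-fold in cKO and 2.53-fold in control samples. *Smarcc2* had 135, 138, 138 and 101 CPM in cKO samples 1 to 4, against 116, 121, 134 and 106 CPM in control samples 1 to 4, where cKO 4 lay below every other sample. *Smarcb1*, which encodes the nucleosome-contacting subunit BAF47, was at 129 ± 12.68 CPM in cKO and 129 ± 7.28 CPM in control samples, and the actin-related *Actl6a* at 115 ± 8.16 CPM in cKO and 115 ± 8.60 CPM in control samples (SD, n = 4 each), and for both the difference between means was smaller than the SD within either genotype.

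The subunits that set BAF apart from PBAF gave 0 calls of 10. *Arid1a*, the large DNA-binding subunit of BAF, led *Arid1b* by 10.6-fold per length in cKO and 9.99-fold in control samples. *Dpf3* (BAF45C), a histone reader known for its part in heart and muscle development, had 51.1, 41.0, 47.3 and 32.5 CPM in cKO samples 1 to 4, against 39.6, 35.6, 45.4 and 35.7 CPM in control samples 1 to 4. The values overlapped, with the highest in cKO 1 and the lowest in cKO 4, and the log2 fold change was 0.14 ± 0.13 (SE) (interval -0.15 to 0.42). *Dpf2*, its ubiquitous paralogue, was above *Dpf3* by 3.11-fold in cKO and 3.52-fold in control samples. The 4 PBAF genes had fold changes on both sides of 0: *Arid2* at 0.08 ± 0.09 (SE) and the bromodomain gene *Pbrm1* at 0.08 ± 0.07 (SE) above it, *Brd7* at -0.09 ± 0.08 (SE) and *Phf10* at -0.12 ± 0.07 (SE) below it, on the log2 scale. *Phf10*, which encodes the PHD finger subunit BAF45A, had 82.0, 77.6, 77.7 and 79.2 CPM in cKO samples 1 to 4, against 90.4, 78.1, 85.3 and 89.5 CPM in control samples 1 to 4. Its cKO values sat near the lowest control, with unadjusted p = 0.11 and adjusted p = 0.428 (edgeR).

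**Figure D2:**
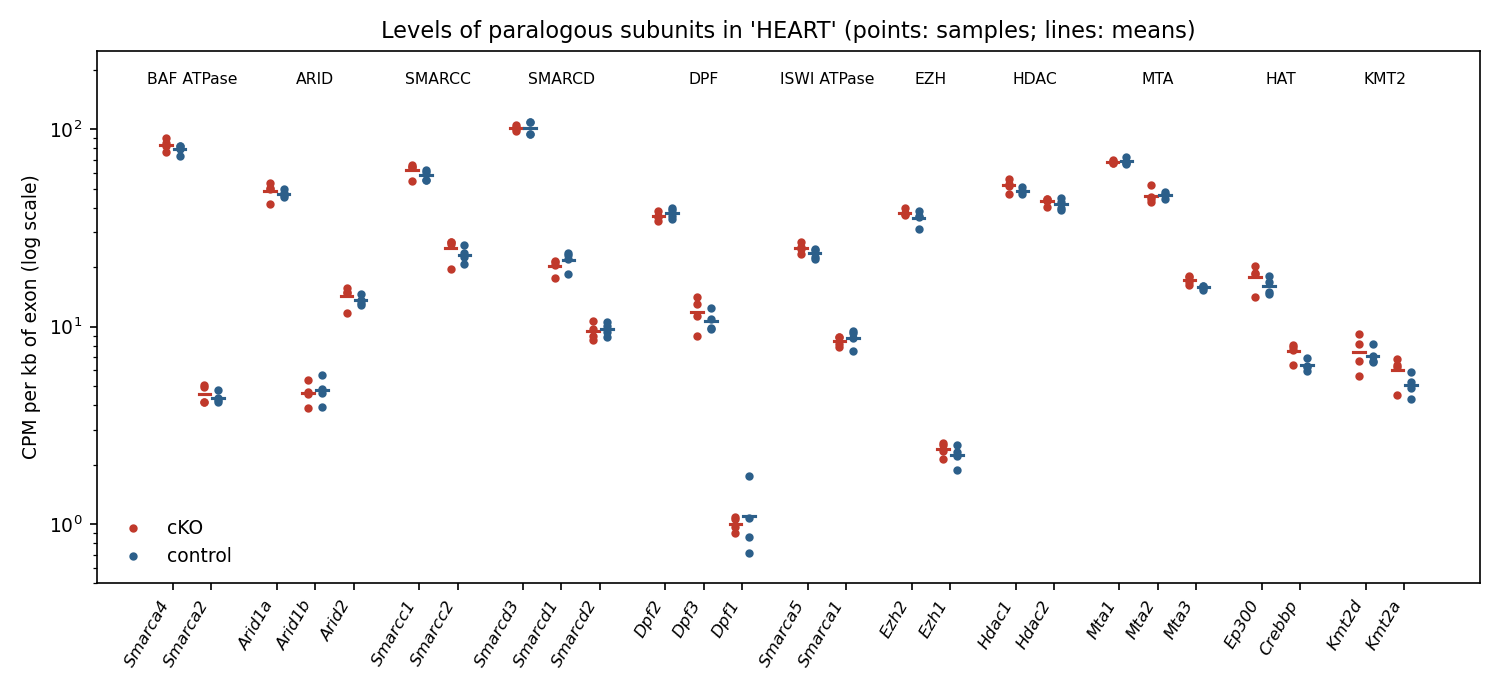
Level of paralogous subunits in 'HEART' as CPM per kb of exon on a log axis, with 4 cKO samples left of 4 control samples for each gene (points) and the mean of each genotype (lines). *Smarcd3* stood at 101 CPM per kb in cKO and 102 CPM per kb in control samples, and the order within each family was the same in both genotypes.

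Across the 43 genes the control levels per length spanned 92.4-fold, with *Smarcd3* highest and *Dpf1* lowest. After *Smarcd3* came *Mbd3* of NuRD, *Smarca4*, *Smarcb1* and *Mta1*, and the lowest before *Dpf1* were *Ezh1*, *Smarca2*, *Arid1b* and *Ino80*. Of the 42 pairs of neighbours in that order, 33 overlapped between control samples and were not told apart. The 9 that did not overlap included the steps from *Mbd3* to *Smarca4*, from *Smarcb1* to *Mta1* and on to *Smarcc1*, and from *Smarca2* to *Ezh1* and on to *Dpf1*. In cKO samples 21 of the 43 genes kept their rank, and no gene moved by more than 3 ranks. The 12 paralogue ratios computed all overlapped between genotypes, in 2 cases through 1 control only. *Smarca5* over *Smarca1* was 2.86 to 3.04 in cKO samples, 2.92 in control 1 and 2.59 to 2.63 in controls 2 to 4. *Kmt2a* over *Kmt2d* was 0.748 to 0.950 in cKO samples, 0.777 in control 4 and 0.651 to 0.721 in controls 1 to 3.

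The ISWI family gave 0 calls of 5. *Smarca5* (SNF2H), the main ISWI ATPase, had 142, 155, 165 and 151 CPM in cKO samples 1 to 4, against 134, 152, 138 and 149.9 CPM in control samples 1 to 4, with cKO 3 highest and control 1 lowest and overlap between the genotypes. *Smarca1* (SNF2L), its paralogue on the X chromosome, had 46.4, 52.3, 52.2 and 48.4 CPM in cKO samples 1 to 4, against 44.2, 55.8, 51.4 and 55.0 CPM in control samples 1 to 4, and the log2 fold changes were 0.09 ± 0.07 (SE) for *Smarca5* and -0.05 ± 0.09 (SE) for *Smarca1*. *Smarca5* led *Smarca1* by 2.97-fold in cKO and 2.69-fold in control samples per length. *Baz1a* (ACF1, chromosome 12, 54892989 to 55014348, - strand), which spaces nucleosomes together with SNF2H, had 52.9, 57.7, 57.6 and 50.6 CPM in cKO samples 1 to 4, against 44.9, 52.2, 48.5 and 46.8 CPM in control samples 1 to 4. Control 2 reached into the range of the cKO samples, and the log2 fold change was 0.18 ± 0.08 (SE) with unadjusted p = 0.0331 and adjusted p = 0.244. The remaining partners of SNF2H, *Baz1b* (the Williams syndrome transcription factor) and *Baz2a* (the large NoRC subunit), had log2 fold changes of 0.06 ± 0.06 (SE) and 0.13 ± 0.08 (SE).

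The INO80 family ATPases, which move or exchange nucleosomes holding the histone variant H2A.Z, gave 0 calls of 3. *Ino80* had 31.0, 33.9, 34.5 and 28.4 CPM in cKO samples 1 to 4, against 30.8, 35.1, 31.1 and 33.0 CPM in control samples 1 to 4, with a log2 fold change of -0.03 ± 0.09 (SE). *Srcap* had 228, 235, 209.7 and 179 CPM in cKO samples 1 to 4, against 201, 213, 214 and 201 CPM in control samples 1 to 4, with a log2 fold change of 0.04 ± 0.08 (SE). For both genes cKO 4 was the lowest sample and the genotypes overlapped. Annotated transcripts of other genes overlap 78.4% of the exon bases of *Srcap*, so its count is uncertain. *Ep400*, the ATPase of the TIP60 complex, had 169, 184, 165 and 182 CPM in cKO samples 1 to 4, against 145, 168, 160.3 and 163 CPM in control samples 1 to 4. All 4 cKO samples of *Ep400* exceeded 3 of the 4 controls but control 2 overlapped them, and the log2 fold change was 0.14 ± 0.07 (SE) (adjusted p = 0.336).

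*Hells* (chromosome 19, 38930915 to 38971051, + strand) encodes LSH, a remodeller needed for DNA methylation of repeats, and gave the smallest p of the 43. It had 48.2, 47.8, 54.4 and 45.3 CPM in cKO samples 1 to 4, against 37.4, 44.7, 35.6 and 43.7 CPM in control samples 1 to 4. Every cKO sample lay above every control, narrowly, since cKO 4 was close to controls 2 and 4. The log2 fold change was 0.28 ± 0.09 (SE), with an interval of 0.07 to 0.48, unadjusted p = 0.0117 and adjusted p = 0.141, short of the threshold. *Hells* is also known to be expressed in dividing cells, and the 11 proliferation markers (replication and mitosis genes) summed to 3161 to 3422 CPM in cKO and 2811 to 3303 CPM in control samples, with 0 of 11 called and a median log2 fold change of 0.07. Their part in the *Hells* value was not tested. Of 6 genes that act with LSH in DNA methylation, among them *Cdca7*, 0 were called, and their median log2 fold change was 0.04.

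All 4 PRC2 genes lay above 0 and none was called (adjusted p 0.622 to 0.861). *Ezh2*, the methyltransferase of dividing tissue, had 105, 102, 105 and 112 CPM in cKO samples 1 to 4, against 108, 102, 87.3 and 101 CPM in control samples 1 to 4. Control 3 was the lowest sample and the rest overlapped, with a log2 fold change of 0.09 ± 0.08 (SE). *Ezh1*, the paralogue of resting tissue, had 12.9, 14.3, 15.2 and 15.6 CPM in cKO samples 1 to 4, against 14.0, 15.4, 13.4 and 11.5 CPM in control samples 1 to 4, with overlapping genotypes and a log2 fold change of 0.09 ± 0.12 (SE). *Ezh2* led *Ezh1* by 15.9-fold in cKO and 16.0-fold in control samples per length. The scaffold genes *Eed*, which reads the methyl mark, and *Suz12* had log2 fold changes of 0.04 ± 0.07 (SE) and 0.09 ± 0.09 (SE). *Suz12* was at 135 CPM in cKO 3, above its other 7 samples, which ran from 99.3 CPM in cKO 4 to 114 CPM in control 4.

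The intervals of all 6 NuRD genes lay within 0.32 of 0, and 0 of 6 were called. The deacetylase *Hdac1* had 107, 106, 95.9 and 115 CPM in cKO samples 1 to 4, against 98.7, 104, 95.3 and 99.7 CPM in control samples 1 to 4, with a log2 fold change of 0.09 ± 0.07 (SE). Its highest sample was cKO 4 and its lowest control 3, and the rest overlapped. *Hdac2* had 184, 187, 188 and 170.1 CPM in cKO samples 1 to 4, against 191, 166, 182 and 169 CPM in control samples 1 to 4, with a log2 fold change of 0.04 ± 0.07 (SE), and its samples were interleaved. *Hdac1* led *Hdac2* by 1.202-fold in cKO and 1.169-fold in control samples per length. The MTA genes encode the scaffold of NuRD. *Mta1*, the most abundant of them, differed by -0.01 ± 0.06 (SE) on the log2 scale and *Mta2* by -0.01 ± 0.07 (SE). *Mta3* had 49.95, 51.8, 54.3 and 54.9 CPM in cKO samples 1 to 4, against 48.1, 47.0, 49.1 and 48.9 CPM in control samples 1 to 4. Its genotypes did not overlap, with cKO 1 just above control 3, but the log2 fold change was only 0.13 ± 0.07 (SE), with unadjusted p = 0.0805 and adjusted p = 0.375. *Mbd3*, which encodes the subunit that separates this NuRD from the MBD2 form, had lower values in 3 cKO samples, with 167, 154, 142 and 163 CPM in cKO samples 1 to 4, against 184, 166, 169 and 172 CPM in control samples 1 to 4. The cKO 1 value overlapped the lowest control, and the log2 fold change was -0.14 ± 0.07 (SE) (adjusted p = 0.334).

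The 4 coactivator enzymes all lay above 0, with a median of 0.20 on the log2 scale, and 0 of 4 were called. *Crebbp* (chromosome 16, 4081328 to 4213997, - strand), which encodes the acetyltransferase CBP, had 87.6, 85.1, 82.4 and 69.3 CPM in cKO samples 1 to 4, against 64.1, 67.6, 75.2 and 68.6 CPM in control samples 1 to 4. Samples 1 to 3 of the cKO lay above every control and cKO 4 lay among the controls, and the log2 fold change was 0.24 ± 0.08 (SE), with unadjusted p = 0.0163 and adjusted p = 0.17. Its paralogue *Ep300* (chromosome 15, 81585351 to 81652077, + strand), which encodes p300, had 179.7, 194, 177 and 136 CPM in cKO samples 1 to 4, against 139, 144, 173 and 161 CPM in control samples 1 to 4. Here cKO 4 was the lowest of all 8 samples and cKO 1 to 3 the highest, and the log2 fold change was 0.16 ± 0.11 (SE) (adjusted p = 0.514). *Kmt2a* (chromosome 9, 44803355 to 44881296, - strand), which encodes the histone H3 methyltransferase MLL1, had 103, 113, 105 and 74.0 CPM in cKO samples 1 to 4, against 70.6, 80.6, 96.5 and 85.9 CPM in control samples 1 to 4. The same split was seen, with cKO 1 to 3 above every control and cKO 4 below all but control 1, and the log2 fold change was 0.24 ± 0.13 (SE), at adjusted p = 0.365. *Kmt2d*, the enhancer methyltransferase altered in people with Kabuki syndrome, whose features overlap those of CHARGE syndrome, had 162, 182, 134 and 111 CPM in cKO samples 1 to 4, against 131, 141, 161 and 133 CPM in control samples 1 to 4. Its log2 fold change was 0.06 ± 0.13 (SE), and cKO 4 was again the lowest sample.

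Leaving out cKO 4 changed the calls. Without it, 6 of the 43 subunits passed, all of them higher in cKO: *Crebbp* (log2 fold change 0.32, adjusted p = 0.0199), *Kmt2a* (0.37, 0.0370), *Hells* (0.32, 0.0666), *Ep300* (0.27, 0.0731), *Baz2a* (0.20, 0.0880) and *Baz1a* (0.23, 0.0921). These were 14.0% of the subunits. Over all genes 1421 of 12813 (11.1%) were then called instead of 817, with 873 (6.81%) higher in cKO. Leaving out any of the other 7 samples gave 0 called subunits. *Baz2a* (chromosome 10, 128091577 to 128129303, + strand) had 168, 186, 165 and 145 CPM in cKO samples 1 to 4, against 153, 144, 153 and 157 CPM in control samples 1 to 4; cKO 1 to 3 lay above every control and cKO 4 did not.

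**Figure D3:**
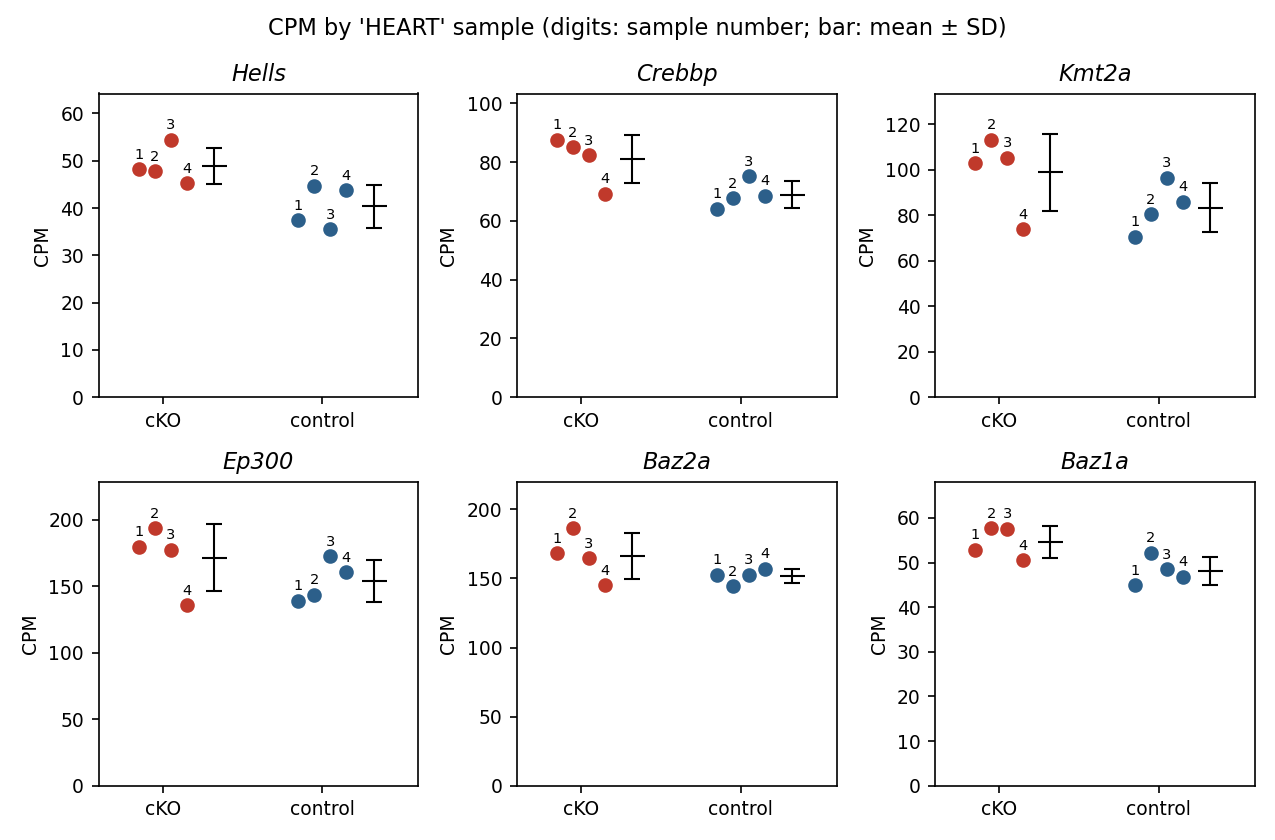
CPM by 'HEART' sample for the 6 subunits that passed the threshold only without cKO 4, with cKO samples left of controls, each point labelled with its sample number, and the mean ± SD beside them (n = 4 each). For *Ep300*, cKO 4 stood at 136 CPM, below the 3 other cKO samples at 177 to 194 CPM and the controls at 139 to 173 CPM.

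The deviation of cKO 4 went with the length of the transcripts. Among the 11 subunits with at least 8000 bases of exon, 10 were below the mean of the other cKO samples, with a median of -0.31 on the log2 scale; among the 8 subunits under 2500 bases the median was 0.05. All tested genes showed the same slope in that sample, with medians of -0.19 over 940 genes of at least 8000 bases and 0.16 over 3872 genes under 2500 bases. In cKO 2 the 11 long subunits were all above the mean of the other cKO samples, by a median of 0.20. Controls split in the same manner, since the long subunits had a median of -0.14 in control 1 and 0.10 in control 3. Across the 43 genes, which share a library and are not independent, the deviation had a Pearson correlation with log2 exon length of -0.66 in cKO 4, 0.77 in cKO 2, -0.61 in control 1 and 0.58 in control 3, and of 0.01 to 0.24 in the remaining samples. Each sample was set against the others of its genotype, so a low value in 1 sample raises the deviations of the others. Opposite slopes within a genotype are therefore not separate observations. Of the 6 subunits called without cKO 4, *Kmt2a* has 16470, *Crebbp* 10820, *Ep300* 9566, *Baz2a* 8539, *Baz1a* 6359 and *Hells* 5868 exon bases. When each sample's level of long over short genes (the difference in median log2 CPM between those 940 and 3872 genes) was added to the model as a covariate, 0 of the 43 were called, with all 8 samples (982 genes called in all) and also without cKO 4 (181 genes called in all). Without cKO 4, adding the covariate left some fold changes almost where they were and lowered others: *Hells* had 0.31 with it and 0.32 without it, *Baz2a* 0.20 and 0.20, *Baz1a* 0.17 and 0.23, *Crebbp* 0.20 and 0.32, *Kmt2a* 0.12 and 0.37 and *Ep300* 0.09 and 0.27 on the log2 scale. In that fit the covariate, centred over the 8 samples, ran from 0.11 to 0.21 in cKO and from -0.19 to 0.09 in control samples. The genotypes did not overlap in it, so the level of long genes and the genotype cannot be fully told apart there. The fit that gave 6 calls used these same samples. With all 8 samples, 982 genes were called with the covariate and 817 without it. Without cKO 4, far fewer were called with the covariate, 181 against 1421. Neither a kept fold change nor a lost call there shows whether length accounts for it. In the fit with all 8 samples and the covariate, where 0 subunits were called without the covariate as well, *Hells* had a log2 fold change of 0.25 (adjusted p = 0.164) and *Crebbp* 0.18 (0.119), and *Ep300* stood at 0.07 (0.608) and *Kmt2a* at 0.13 (0.274). Both these fits were chosen after the data were seen, and what set the slope in each library was not tested.

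**Figure D4:**
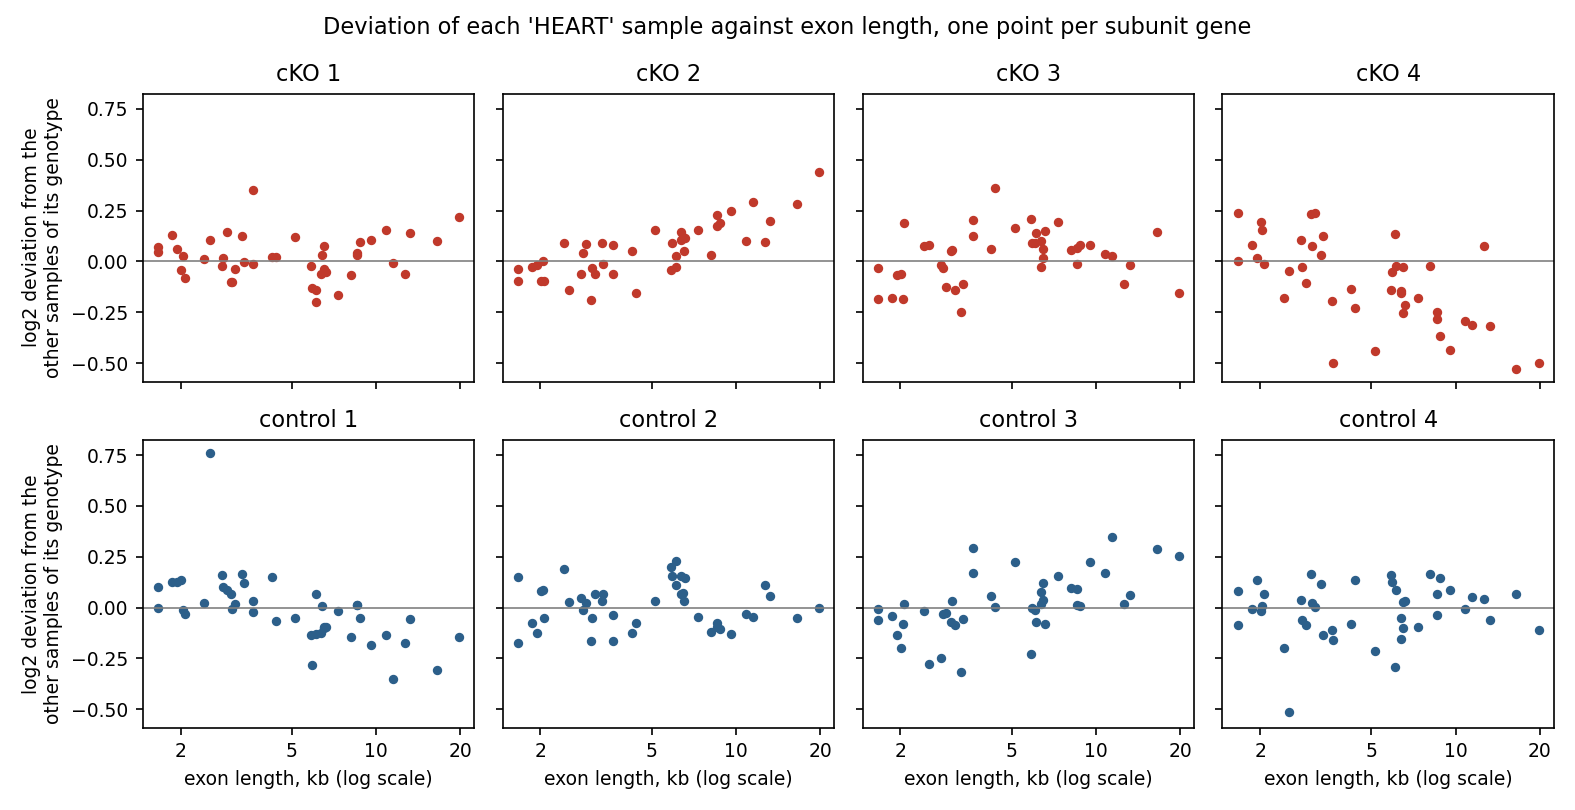
Log2 deviation of each 'HEART' sample from the mean of the other samples of its genotype, against exon length in kb on a log axis, 1 point per subunit gene (43 per panel), with cKO samples above controls. In cKO 4 and control 1 the long genes lie low (r = -0.66 and -0.61), and in cKO 2 and control 3 they lie high (r = 0.77 and 0.58).

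Other subunits of the same complexes were examined as lists, and these gave 2 calls, against a background of 6.44% of all genes. In 'HEART', 0 of 7 further BAF and PBAF genes, 0 of 8 ISWI, 0 of 26 INO80, SRCAP and TIP60, 0 of 8 NuRD and 0 of 7 PRC2 genes tested were called. Their median log2 fold changes ran from -0.15 (BAF and PBAF) to 0.05 (ISWI and NuRD). *Rbbp4* and *Rbbp7* were counted in each of the ISWI, NuRD and PRC2 lists, so those lists are not independent. Of 22 genes of Polycomb repressive complex 1, which ubiquitinates histone H2A, 1 (4.55%) rose. This was *Pcgf5*, a RING finger subunit of a variant complex, with 72.4, 78.7, 63.9 and 65.8 CPM in cKO samples 1 to 4, against 43.8, 44.7, 46.3 and 54.6 CPM in control samples 1 to 4. The genotypes did not overlap, and the log2 fold change was 0.57 ± 0.09 (SE) with adjusted p = 0.00354. Of 12 COMPASS genes, which methylate histone H3 or act with the enzymes that do, 1 (8.33%) rose as well. Both shares are close to the background and say nothing particular of these complexes. This was *Kdm6a* (UTX), the X-linked demethylase that works within the KMT2D complex, with 63.1, 60.4, 65.3 and 64.6 CPM in cKO samples 1 to 4, against 51.1, 43.4, 39.3 and 46.5 CPM in control samples 1 to 4. Every cKO sample lay above every control, and the log2 fold change was 0.49 ± 0.08 (SE) (adjusted p = 0.00501). *Kdm6a* lies on the X chromosome, and *Xist* was high in all 4 cKO samples and in control 1 alone among controls, so the sex of the embryos and the genotype cannot be fully told apart. With log2 *Xist* as a covariate, which reduced the calls over all genes to 235, the log2 fold change of *Kdm6a* was 0.32 with adjusted p = 0.272, and that of *Pcgf5* 0.66 with adjusted p = 0.0710; the part of sex in either value was not tested. Without cKO 4 and with the long gene covariate, *Kdm6a* passed (0.68, adjusted p = 0.0335) and *Pcgf5* did not (0.57, adjusted p = 0.158).

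In 'SHF' the deposited table held 1 FPKM value per genotype, so no spread between embryos could be computed and no test was made. *Chd7* had 18.9 FPKM in cKO 'SHF', against 28.2 FPKM in control 'SHF'. This was 1.49-fold lower in cKO, short of the 1.5-fold mark used below. That mark thus missed the deleted gene and does not show that a subunit was unchanged in the cells that lost *Chd7*. Of 3 genes that mark the second heart field, *Isl1* had 12.8 FPKM in cKO against 17.7 FPKM in control, *Tbx1* 26.0 FPKM against 25.7 FPKM and *Fgf10* 3.59 FPKM against 5.19 FPKM. The 8 cardiomyocyte markers summed to 84.1 FPKM in cKO and 156 FPKM in control. Of the 43 subunits 37 had a locus of their own. None of the 37 was past 1.5-fold either way, where 1.96% of 11030 gene symbols with a mean of at least 1 FPKM were. None had a log2 ratio past 0.32 either way, where 623 of those 11030 symbols did. The log2 ratios ran from -0.07 (*Smarca2*) to 0.30 (*Dpf3*), with 18 above and 19 below 0 and a median of -0.0024. For 34 of the 37 (91.9%) the ratio was within 0.1 of 0 on the log2 scale, as for 70.3% of all symbols, which were not matched to the subunits in level.

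The 3 subunits further out were low. *Dpf3* was at 3.82 FPKM (cKO) and 3.10 FPKM (control), *Dpf1* at 4.90 FPKM (cKO) and 4.09 FPKM (control) and *Ezh1* at 3.95 FPKM (cKO) and 3.68 FPKM (control) 'SHF'. The more abundant enzymes were close in both genotypes. *Smarca4* was at 69.8 FPKM (cKO) and 70.6 FPKM (control), *Ezh2* at 92.2 FPKM (cKO) and 89.9 FPKM (control), *Hdac2* at 151 FPKM (cKO) and 151 FPKM (control) and *Hells* at 68.4 FPKM (cKO) and 65.2 FPKM (control). The genes that stood higher in 'HEART' without cKO 4 had little difference in 'SHF', with *Crebbp* at 35.0 FPKM (cKO) and 36.2 FPKM (control), *Ep300* at 26.4 FPKM (cKO) and 26.9 FPKM (control), *Kmt2a* at 9.76 FPKM (cKO) and 9.21 FPKM (control), *Baz2a* at 23.9 FPKM (cKO) and 24.0 FPKM (control) and *Baz1a* at 15.1 FPKM (cKO) and 15.0 FPKM (control). For the remaining 6 subunits the locus was joined with a neighbouring gene (*Smarcd2* with *Ftsj3*, *Dpf2* with *Tigd3*, *Brd7* with *Adcy7*, *Srcap* with *Tmem265*, *Kmt2d* with *Prkag1* and *Mta2* with *Eml3*), so that the values could not be split between them, and no joint ratio exceeded 0.064 on the log2 scale either way.

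**Figure D5:**
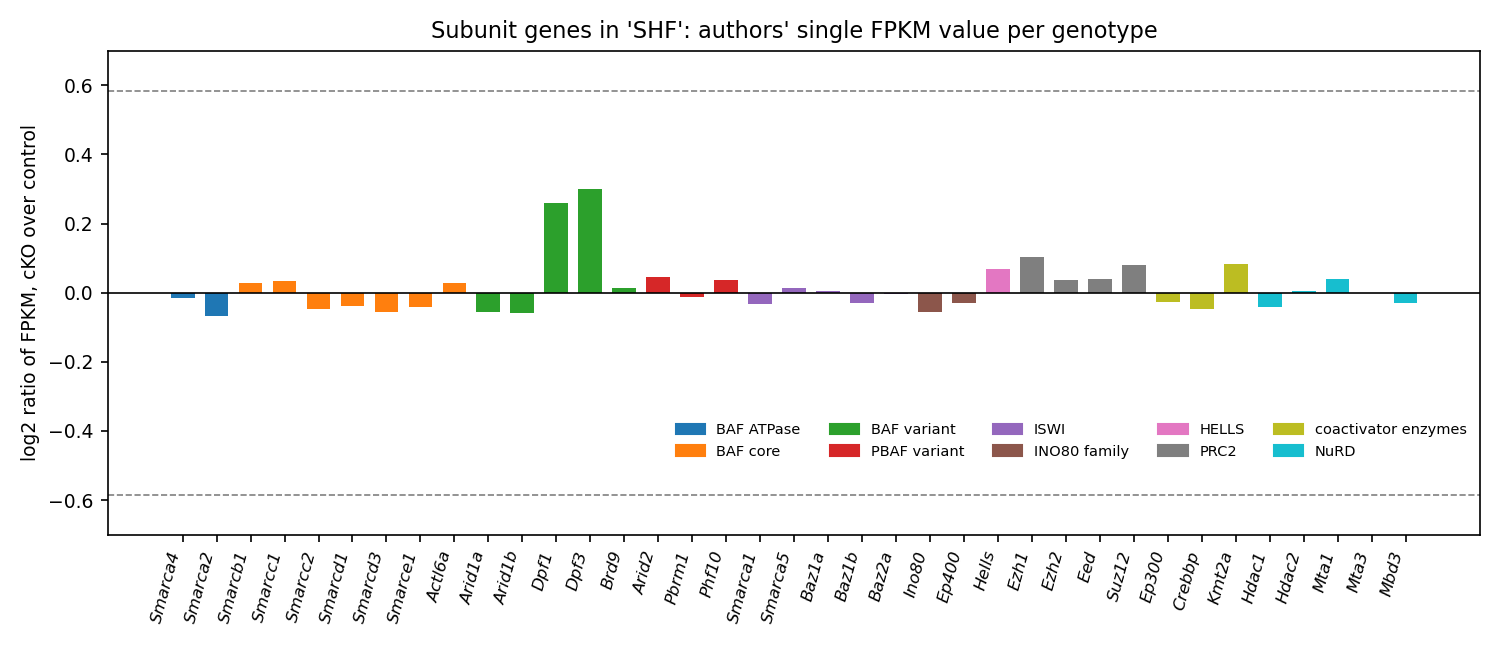
Log2 ratio of FPKM in cKO over control 'SHF' for the 37 subunits with a locus of their own, coloured by complex. Each bar rests on the authors' single value per genotype and has no error, and the dashed lines mark 1.5-fold; every bar lies within them, from -0.07 to 0.30.

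Within 'SHF' the balance of paralogues was alike in both genotypes. *Smarca4* led *Smarca2* by 3.21-fold in cKO and 3.10-fold in control, *Ezh2* led *Ezh1* by 23.3-fold in cKO and 24.4-fold in control, and *Smarca5* led *Smarca1* by 5.55-fold in cKO and 5.37-fold in control. *Smarcd3* was at 7.24 FPKM (cKO) and 7.53 FPKM (control), and *Smarcd1* exceeded it by 9.45-fold in cKO and 9.32-fold in control, whereas in 'HEART' *Smarcd1* stood at 0.199 of *Smarcd3* in cKO and 0.214 in control. The dissections differ in library kit, in counting and in unit as well as in tissue, so these ratios are given side by side and were not tested.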

How the data were processed

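RNA-seq of single E9.5 embryos was analysed for 2 dissections. For 'HEART' the authors made poly(A)-selected libraries, ran fastp 0.20.1 and STAR 2.7.2b (mm10) and deposited raw read counts per gene made by featureCounts 1.6.4; 8 further columns of normalised values were not used. For 'SHF' the authors used rRNA-depleted libraries and deposited 1 FPKM value per genotype; their methods name STAR 2.5.0b, HTSeq and DESeq2, while the layout is that of a comparison on merged loci, and the tool behind it is not named. Both tables also hold the authors' own fold changes, p-values and q-values, which were not used.

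Counts were fitted in R 4.3.3 with edgeR 4.0.16 (default expression filter, TMM, quasi-likelihood test, no covariate), with Benjamini-Hochberg adjustment over 12694 genes and a threshold of 0.1. No counts were excluded by sample, and no row was imputed; 27 rows carried a date for a symbol. Depth was 8640839 to 15030099 counts per sample; the biological coefficient of variation was 11.2% and the median 95% interval reached 0.23 to either side on the log2 scale. The depth of the 'SHF' values is unknown. Exon lengths and coordinates came from GENCODE M21 (mm10), which held 95.6% of the symbols, and levels per kb divide CPM by merged exon length. Neither paralogue ratios nor 'SHF' ratios had a pseudocount, and the deviations of samples were computed on log2(CPM + 1). The fit was tested on simulated data. Alternatives were DESeq2 1.42.0, limma 3.58.1 (voom), other scalings, filters and thresholds, each sample left out, a block on replicate number or on the prefix of the embryo code, and *Xist* or long gene level as a covariate.

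The labels show embryos and not cultures as replicates, and sharing of litters was not stated. The genes, groups and lists were chosen with earlier results of these data known. Values in every sample are given for the 8 subunits of smallest p, for catalytic subunits and for *Smarcd3* and *Dpf3*; *Smarcc2*, *Baz2a* and the remaining genes named with values were chosen after their values were seen.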

Additional observations from a re-analysis of the deposited data

Results flagged for a closer look

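Within the genotypes, 86 groups of 4 'HEART' values (the 43 subunits in cKO and in control samples) were examined for a sample far from the others, a test that flags about 1 in 20 groups by chance. It picked 2. *Smarcc2*, a scaffold subunit of BAF, was at 101 CPM in cKO 4 and at 135 to 138 CPM in the other cKO samples. *Baz1b*, an ISWI partner, was at 201 CPM in control 1 and at 215 to 217 CPM in the other controls.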

How the results depend on the processing

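Across 20 alternatives the 43 log2 fold changes gave 860 values, of which 854 kept their side of the threshold and 6 passed it, all without cKO 4. The sign of an uncalled value changed 58 times, in 21 subunits. Called subunits numbered 0 to 6 when samples were left out in turn (6 without cKO 4, 0 otherwise), and calls over all genes 500 to 1421 (510 without cKO 1, 500 without cKO 2, 1421 without cKO 4, 509 without control 1), with 259, 256, 873 and 265 of them higher. Without cKO 4 and with long gene level as a covariate 181 genes were called, 92 higher and 89 lower. With *Xist* as a covariate 235 were called, 124 higher and 111 lower. An adjusted p of 0.05 left 549 genes, 289 higher. Scaling by total counts shifted the median of all genes to -0.04 and gave 360 higher and 478 lower calls, where TMM gave 446 and 371; 3 subunits changed sign under it, all uncalled. The replicate numbers do not pair the samples (correlations of same-numbered samples -0.06 to 0.21; only number 3 correlated best with its own number); the replicate block called 917 genes and 0 subunits, and limma-voom with the prefix of the embryo code, which some samples share, as a random block called 897 genes and 0 subunits (823 genes with limma-voom alone). For the paralogue ratios, 108 differences between genotypes were computed under alternatives, and none moved by more than the spread between replicates. Most of these alternatives left out 1 sample. With 4 samples per genotype that step cannot move a difference by so much, so this result does not show that the ratios are stable. In 'SHF', genes past the fold numbered 216, with 126 after adding 1 FPKM, 54 from 5 FPKM, 2248 without a filter, 623 past a log2 ratio of 0.32 and 79 at 2-fold. With 4 samples per genotype, a difference within 0.23 on the log2 scale lay inside the interval of a typical gene.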
